A study of Mus musculus with 24 samples.

Results

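A set of 10 genes of the Wnt pathway that are known from limb mesenchyme were followed through 4 H3K27ac peak lists of mouse limb buds: the ligand genes Wnt5a, Wnt5b and Wnt11, the receptor gene Ror2, the secreted antagonist genes Sfrp1, Sfrp2 and Frzb, the transcription factor genes Lef1 and Tcf7, and the feedback inhibitor gene Axin2. They were named by symbol with no threshold on a measured value, though with earlier results of these data known, and are 10 of 21887 protein-coding genes in RefSeq for GRCm38 (mm10). Each gene was taken with its body and 50 kb on each side, and all 10 held peaks in every list. H3K27ac, acetylated lysine 27 of histone H3, marks promoters and enhancers that are active. The 4 libraries were those labelled Sox9cKO at E12.5 and Sox9null at E11.5, both deficient in the cartilage regulator Sox9, and the Control libraries at E12.5 and E11.5. The labels give no allele, Cre driver, strain or number of embryos for any of these groups, and a further 20 libraries of the 24 were not analysed here. The series concerns whether chromatin changes at the start of cartilage formation need Sox9. The labels give 1 library in each group, no test was run, and every value below describes these libraries.

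Wnt proteins are secreted signals that act along a β-catenin route and along non-canonical routes. In the first, binding to Frizzled receptors and LRP co-receptors stabilises β-catenin, which enters the nucleus and acts with the DNA-binding proteins of the TCF/LEF family. In the second, ligands such as Wnt5a act through Ror2 on cell polarity and movement and do not need β-catenin. In the limb bud, β-catenin signalling from the ectoderm is known to hold back cartilage formation, while Wnt5a and Ror2 are needed for limb outgrowth and for the shape of the cartilage elements.

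Peaks numbered 90 in the windows of these genes in the labelled Sox9cKO list, 80 in the labelled Sox9null list, 80 in the E12.5 control and 104 in the E11.5 control. The lists themselves held 28419 to 36937 peaks over 52.0 to 66.7 Mb, with median peak widths of 1141 to 1778 bp. The read depth is unknown. For the 2 Sox9-deficient lists, the names under which they were deposited and their sample titles are exchanged. The titles were followed here, the deficient libraries are called by their labels, and values under the exchanged names stand beside the affected comparisons. Over the Sox9 gene body, peaks covered 54.3% in the labelled Sox9cKO list and 55.8% in the labelled Sox9null list, against 81.3% in the E12.5 control and 96.6% in the E11.5 control. With 50 kb on each side the groups did not separate. The labelled Sox9cKO list then had 9.08 kb and the labelled Sox9null list 7.76 kb, against 9.87 kb in the E12.5 control and 7.80 kb in the E11.5 control. All 5 limb mesenchyme genes checked (Prrx1, Prrx2, Twist1, Msx1 and Tbx15) held peaks in every list. Tbx5, a forelimb regulator, was covered over 32.6 kb in the labelled Sox9cKO list and 0 kb in the labelled Sox9null list, against 3.76 kb in the E12.5 control and 32.3 kb in the E11.5 control. The labelled Sox9cKO list was thus like the E11.5 control at Tbx5, and the labelled Sox9null list like the E12.5 control. The hindlimb genes Tbx4 and Pitx1 were covered in every list. At Tbx4 the labelled Sox9cKO list had 50.4 kb, the labelled Sox9null list 61.0 kb, the E12.5 control 55.9 kb and the E11.5 control 44.3 kb. In the same order Pitx1 had 19.0, 18.3, 18.3 and 16.4 kb. The part of limb type in differences between the lists was not tested. In bulk tissue such as limb buds, fewer cells of a type and less acetylation per cell cannot be told apart.

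RefSeq promoter windows of GRCm38.p6, from 250 bases before to 50 bases after a transcript start, were given for 8 of the 10 genes, in 15 windows. They were searched on both strands for CTTTGA, the letters at the core of TCF/LEF sites, whose reverse complement is TCAAAG. A match was found in 4 of the 15 windows and in 14.4% of the 21263 windows of protein-coding genes. The 4 windows with a match are shown in lower case with the matching letters in capitals, since they hold the starts where acetylation and these letters meet, or where the lists differed in marking an inner start. Positions count back from the start, and a minus strand window is written in the direction of transcription.
Frzb, chr2:80447347-80447646, minus strand, match at -95: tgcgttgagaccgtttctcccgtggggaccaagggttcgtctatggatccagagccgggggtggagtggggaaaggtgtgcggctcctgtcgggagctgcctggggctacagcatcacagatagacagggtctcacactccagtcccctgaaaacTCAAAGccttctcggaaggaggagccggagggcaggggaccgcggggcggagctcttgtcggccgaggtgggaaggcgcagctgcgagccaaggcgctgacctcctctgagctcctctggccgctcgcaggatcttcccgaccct
Wnt11, chr7:98834862-98835161, plus strand, match at -50: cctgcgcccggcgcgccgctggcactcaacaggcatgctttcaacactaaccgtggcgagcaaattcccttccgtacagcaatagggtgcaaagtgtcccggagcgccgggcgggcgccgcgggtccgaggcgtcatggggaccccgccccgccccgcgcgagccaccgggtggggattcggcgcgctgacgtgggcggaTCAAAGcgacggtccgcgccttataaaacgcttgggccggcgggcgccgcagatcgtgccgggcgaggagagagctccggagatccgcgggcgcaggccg
Wnt5b inner start, chr6:119449337-119449636, minus strand, match at -71: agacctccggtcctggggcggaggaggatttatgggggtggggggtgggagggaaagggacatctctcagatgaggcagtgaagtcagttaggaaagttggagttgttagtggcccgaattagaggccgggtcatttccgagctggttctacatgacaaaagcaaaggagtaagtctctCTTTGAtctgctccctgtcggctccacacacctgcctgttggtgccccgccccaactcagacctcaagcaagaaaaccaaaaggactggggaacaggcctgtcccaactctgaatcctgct
Lef1 inner start, chr3:131156044-131156343, plus strand, matches at -180 and -120: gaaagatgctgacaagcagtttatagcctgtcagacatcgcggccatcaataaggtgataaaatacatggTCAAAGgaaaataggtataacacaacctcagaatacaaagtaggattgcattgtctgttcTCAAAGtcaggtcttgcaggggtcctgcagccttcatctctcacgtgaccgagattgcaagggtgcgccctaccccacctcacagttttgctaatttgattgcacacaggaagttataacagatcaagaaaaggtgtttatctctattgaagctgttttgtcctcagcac
The Frzb and Wnt11 starts lay under a peak in all 4 lists. The inner start of Wnt5b was marked in the labelled Sox9cKO list alone, and the inner start of Lef1 in the E11.5 control alone. Among the windows with no match were those of the outer Lef1 starts, of Axin2, a known direct target of β-catenin signalling, and of Ror2, Sfrp2 and Tcf7. In the E11.5 control the peak covered 57.0% of the Wnt11 window, against all of it in the other lists. At the inner Lef1 start the peak of the E11.5 control covered 40.0% of the window, and both matches lay outside that peak. The G and C content of the 15 windows ran from 43.7% at the inner Lef1 start to 78.0% at the outer Wnt5b start, against a median of 56.3% for protein-coding genes.

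The windows differed widely in how much of them was acetylated. Axin2 and Wnt5a were among the most densely marked, with 19.3% and 18.4% of the window covered in the labelled Sox9cKO list, 22.4% and 19.5% in the labelled Sox9null list, 24.5% and 22.8% in the E12.5 control, and 15.2% and 17.0% in the E11.5 control. These shares lay between percentiles 95.8 and 98.8 of all protein-coding genes. Ror2, Wnt11 and Frzb lay between percentiles 86.5 and 98.0. Tcf7 had 4.71% in the labelled Sox9cKO list and 3.24% in the labelled Sox9null list, against 2.78% in the E12.5 control and 5.79% in the E11.5 control. It was the most sparsely covered member in 3 of the lists, and Sfrp1, with 4.90%, was so in the E11.5 control. Above the 75th percentile in every list were 6 of the 10 genes (Wnt5a, Wnt11, Ror2, Sfrp2, Frzb and Axin2). These values depend on peak calling, so that neighbouring peaks joined in 1 list can be split in another.

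**Figure D1:**
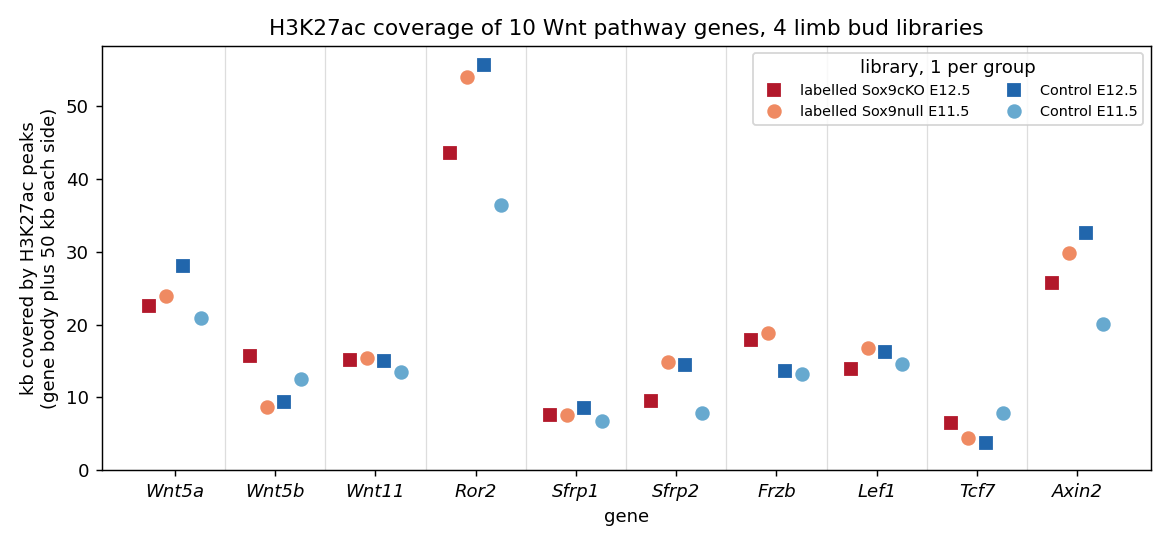
Length covered by H3K27ac peaks (kb, gene body plus 50 kb each side) at the 10 genes, with 1 point per library. Ror2 has the longest covered length and Tcf7 one of the shortest, and at Frzb both Sox9-deficient points (17.9 and 18.8 kb) lie above both control points (13.6 and 13.2 kb).

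The start of the gene was marked in 39 of 40 combinations of gene and list, with the left gene end in RefSeq taken for Wnt5a and Sfrp1. The exception was Sfrp1 in the E12.5 control, where the nearest peak began just inside the gene. Scores rank peaks only within a list, and are given as percentiles of that list. From 2.47% to 7.50% of the peaks of a list share the score 3100, so the top percentiles are tied, at a value that depends on the size of the tie. The start peaks of Wnt5a, Ror2, Sfrp2, Lef1 and Axin2 were at percentile 91.5 or higher in each list. Those of Wnt5b, Wnt11, Sfrp1 and Tcf7 ranked lower and varied more. At the Frzb start the percentile was 95.8 in the labelled Sox9cKO list and 87.6 in the labelled Sox9null list. The controls there had 91.7 at E12.5 and 97.4 at E11.5. The Frzb start peaks of the labelled Sox9cKO list and the E11.5 control both had the tied score 3100. At the Wnt5b start the percentile was 82.4 in the labelled Sox9cKO list and 67.5 in the labelled Sox9null list, against 65.9 in the E12.5 control and 86.6 in the E11.5 control. At the Wnt11 start the percentile was 79.6 in the labelled Sox9cKO list and 36.4 in the labelled Sox9null list, against 70.5 in the E12.5 control and 69.7 in the E11.5 control. The labelled Sox9null list had this start region split into 3 peaks. Its covered length there was 4.49 kb, against 4.48 kb in the E12.5 control and 4.42 kb in the E11.5 control. The part of this split in the rank was not tested. At the Tcf7 start the percentile was 64.9 in the labelled Sox9cKO list and 29.4 in the labelled Sox9null list, against 41.2 in the E12.5 control and 76.8 in the E11.5 control. At the left end of Sfrp1 it was 58.8 in the labelled Sox9cKO list and 9.61 in the labelled Sox9null list. In the E11.5 control it was 68.7 there. In the E12.5 control no peak lay over that end, and the peak just inside it was at percentile 30.1. At Wnt5b, Tcf7 and Sfrp1 the labelled Sox9cKO list and the E11.5 control ranked above the other 2 lists.

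**Figure D2:**
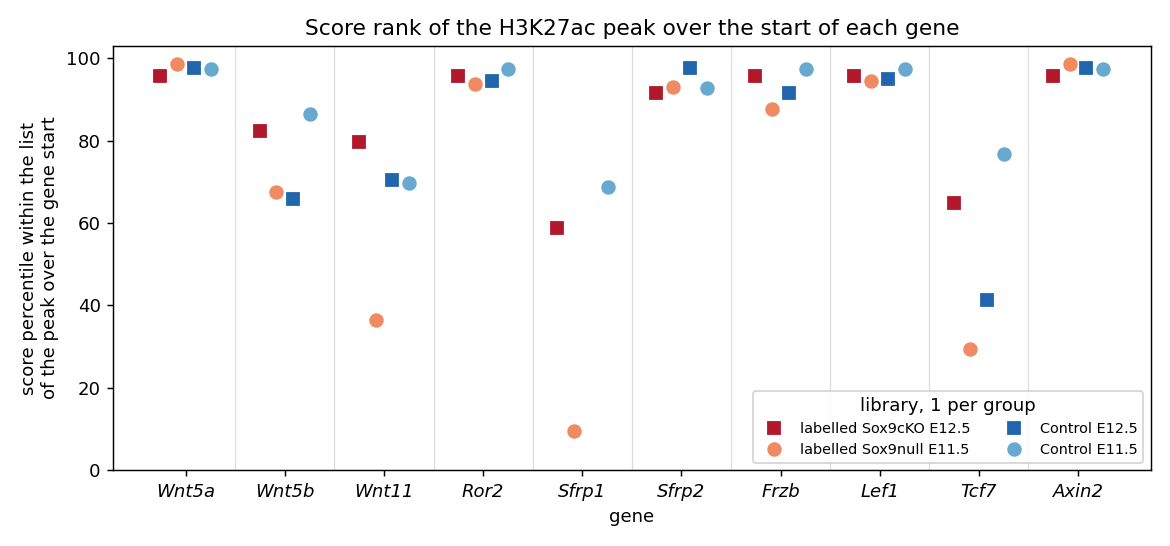
Score percentile, within its own list, of the H3K27ac peak over the start of each gene, with 1 point per library. The points of Wnt5a, Ror2, Sfrp2, Lef1 and Axin2 stay near the top, while Tcf7 spreads from 29.4 to 76.8. Sfrp1 spreads from 9.61 to 68.7. In the E12.5 control no peak lies over its left gene end, though one begins just inside.

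Among the ligand genes, Wnt5a (chromosome 14, 28504543 to 28527448) carried one of the broadest peaks of each library. It encodes the main non-canonical ligand of the distal limb bud. The peak over its left end was 14.13 kb wide in the labelled Sox9cKO list and 12.63 kb in the labelled Sox9null list, against 17.99 kb in the E12.5 control and 10.97 kb in the E11.5 control. By width it ranked 21 and 64 among the peaks of the deficient lists, against 27 and 30 in the E12.5 and E11.5 controls. A distal region 36.3 kb to the left of the gene (28464434 to 28472087) was present in all 4 lists. It covered 6.77 kb in the labelled Sox9cKO list and 7.50 kb in the labelled Sox9null list, against 7.41 kb in the E12.5 control and 5.38 kb in the E11.5 control. Over the whole window Wnt5a had 22.6 kb in the labelled Sox9cKO list and 23.97 kb in the labelled Sox9null list, against 28.04 kb in the E12.5 control and 20.9 kb in the E11.5 control. Both deficient values lay between the controls.

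Wnt5b (chromosome 6, 119432531 to 119544824), whose product acts in cartilage growth, had 15.7 kb in the labelled Sox9cKO list and 8.74 kb in the labelled Sox9null list, against 9.41 kb in the E12.5 control and 12.6 kb in the E11.5 control. The highest score in its window was within 1000 bp of an end of Fbxl14, another protein-coding gene of the window, with percentiles from 91.8 to 97.4. The start peak also lies within 1000 bp of an end of the neighbouring gene Gm52875, so the peaks of this window cannot all be given to Wnt5b. A region 41.8 kb upstream (119585796 to 119586567) and another beside an end of Fbxl14 (119481949 to 119483515) were found in the labelled Sox9cKO list and the E11.5 control only. The window held 8 peaks in the labelled Sox9cKO list and 4 in the labelled Sox9null list, against 4 in the E12.5 control and 11 in the E11.5 control.

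Wnt11 (chromosome 7, 98835084 to 98854747), a non-canonical ligand gene, had 15.1 kb in the labelled Sox9cKO list and 15.5 kb in the labelled Sox9null list, against 14.99 kb in the E12.5 control and 13.4 kb in the E11.5 control. The region over its start (98834494 to 98839972), which holds the promoter letters shown above, covered 5.44 kb in the labelled Sox9cKO list and 4.49 kb in the labelled Sox9null list, against 4.48 kb in the E12.5 control and 4.42 kb in the E11.5 control. The highest score of the window was not at the start but 19.5 kb upstream (98813954 to 98817289), at percentiles from 85.2 to 86.3 in the 4 lists. Between that region and the start, 14.4 kb upstream, a peak was called in both deficient lists and in neither control (98819995 to 98821476). It was 1.07 kb wide at percentile 42.02 in the labelled Sox9cKO list and 1.48 kb wide at percentile 30.8 in the labelled Sox9null list.

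The receptor gene Ror2 (chromosome 13, 53109317 to 53286124), which encodes a tyrosine kinase-like receptor for Wnt5a, had the most regions of the 10 genes, with 29, of which 13 were present in all 4 lists. Its covered length was 43.6 kb in the labelled Sox9cKO list and 54.1 kb in the labelled Sox9null list, against 55.7 kb in the E12.5 control and 36.5 kb in the E11.5 control. The broadest regions lay inside the gene, centred 81.9 and 91.4 kb from the start. The first (53200238 to 53208304) covered 6.74 kb in the labelled Sox9cKO list and 7.34 kb in the labelled Sox9null list, against 7.24 kb in the E12.5 control and 6.16 kb in the E11.5 control. The top score of the window lay 23.4 kb upstream of the start (53307196 to 53311799), where the percentile was 95.8, tied with the start, in the labelled Sox9cKO list and 95.5 in the labelled Sox9null list, against 97.6 in the E12.5 control and 99.7 in the E11.5 control. A peak 35.2 kb upstream (53320146 to 53322589) was found in the labelled Sox9null list (1.999 kb) and the E12.5 control (1.67 kb) only.

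Frzb (chromosome 2, 80411970 to 80447396), first of the secreted antagonist genes, stood above both controls in both deficient lists in covered length, though not in score percentile at its start. Frzb encodes a soluble Frizzled-related protein that binds Wnt proteins and is known from early cartilage. Its covered length was 17.9 kb in the labelled Sox9cKO list and 18.8 kb in the labelled Sox9null list, against 13.6 kb in the E12.5 control and 13.2 kb in the E11.5 control. The start region (80444373 to 80449108) did not separate the groups, with 4.56 kb in the labelled Sox9cKO list and 4.52 kb in the labelled Sox9null list, against 3.71 kb in the E12.5 control and 4.74 kb in the E11.5 control. Nor did the broadest region beyond the 3′ end (80403627 to 80411228), with 5.72 kb in the labelled Sox9cKO list and 6.25 kb in the labelled Sox9null list, against 6.78 kb in the E12.5 control and 4.94 kb in the E11.5 control. Farther out, 2 regions did in covered length or presence. A region 49.3 kb from the start (80396034 to 80400120) covered 3.13 kb in the labelled Sox9cKO list and 3.70 kb in the labelled Sox9null list, against 1.12 kb in the E12.5 control and 2.52 kb in the E11.5 control. Its top score percentiles did not separate the groups. They were 64.8 in the labelled Sox9cKO list and 44.9 in the labelled Sox9null list, against 24.8 in the E12.5 control and 61.9 in the E11.5 control. A region 63.6 kb from the start (80383029 to 80384601) was called in both deficient lists alone, with 1.57 kb at percentile 51.3 in the labelled Sox9cKO list and 1.46 kb at percentile 23.9 in the labelled Sox9null list. A pattern defined by both deficient lists lying above both controls cannot depend on which deficient list is which.

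Sfrp2 (chromosome 3, 83765750 to 83774314) encodes another soluble Frizzled-related protein, made by limb mesenchyme around the condensations. It had 9.50 kb in the labelled Sox9cKO list and 14.9 kb in the labelled Sox9null list, against 14.4 kb in the E12.5 control and 7.86 kb in the E11.5 control. The start region (83763227 to 83769283) was close in size in the lists, from 4.93 to 5.82 kb. A region 51.1 kb downstream (83815544 to 83819335) was present in the labelled Sox9null list (3.26 kb) and the E12.5 control (3.33 kb), and in neither other list. Sfrp1 (chromosome 8, 23411383 to 23449632), a related antagonist gene, had a smaller share of its window covered than Frzb and Sfrp2 in each list, at percentiles from 66.2 to 72.0 of all genes. It had 7.57 kb in the labelled Sox9cKO list and 7.55 kb in the labelled Sox9null list, against 8.54 kb in the E12.5 control and 6.77 kb in the E11.5 control. Both deficient values lay between the controls. A weak peak 29.9 kb from the left end (23440584 to 23441940) was called in both deficient lists alone, at percentiles of 8.17 in the labelled Sox9cKO list and 15.6 in the labelled Sox9null list.

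Of the transcription factor genes, Lef1 (chromosome 3, 131110297 to 131224357) had 13.9 kb in the labelled Sox9cKO list and 16.7 kb in the labelled Sox9null list, against 16.3 kb in the E12.5 control and 14.7 kb in the E11.5 control. These lengths include a region within 1000 bp of an end of the neighbouring gene Hadh (131270530 to 131273904). There the labelled Sox9cKO list had 2.02 kb and the labelled Sox9null list 3.375 kb, against 2.86 kb in the E12.5 control and 1.83 kb in the E11.5 control. Lef1 and Tcf7 encode DNA-binding partners of β-catenin. The start region of Lef1 (131109037 to 131113387) covered 4.06 kb in the labelled Sox9cKO list and 4.03 kb in the labelled Sox9null list, against 3.45 kb in the E12.5 control and 3.66 kb in the E11.5 control. A region with a wide range of covered length lay inside the gene, 28.2 kb from the start (131136316 to 131140681). There the lists covered 2.98 kb (labelled Sox9cKO) and 4.02 kb (labelled Sox9null), against 4.37 kb in the E12.5 control and 1.16 kb in the E11.5 control. The E11.5 control was the lowest of the 4 and the E12.5 control the highest.

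Tcf7 (chromosome 11, 52246527 to 52283383) had 6.45 kb in the labelled Sox9cKO list and 4.43 kb in the labelled Sox9null list, against 3.80 kb in the E12.5 control and 7.92 kb in the E11.5 control. The highest score in its window belonged to a peak within 1000 bp of an end of Skp1, a neighbour that encodes a ubiquitin ligase subunit, which covered 2.48 to 3.25 kb of the region in every list. The Tcf7 lengths include this peak, with 2.80 kb in the labelled Sox9cKO list and 3.25 kb in the labelled Sox9null list. The controls had 2.48 kb of it at E12.5 and 2.65 kb at E11.5, so the lengths cannot all be given to Tcf7. A region inside Tcf7, 10.2 kb from the start (52271656 to 52274031), was marked over 1.87 kb in the labelled Sox9cKO list and 1.48 kb in the E11.5 control, and in neither other list. The labelled Sox9cKO list and the E11.5 control were also the higher pair in the sum over the 4 erythroid genes checked (Gata1, Tal1, Klf1 and Hba-a1), and at each of them except Gata1. Their summed covered length was 22.3 kb in the labelled Sox9cKO list and 10.8 kb in the labelled Sox9null list, against 8.55 kb in the E12.5 control and 19.4 kb in the E11.5 control. Tal1 was at 0 kb in the labelled Sox9null list and the E12.5 control, and the other 3 were above 0 kb in every list. The 4 endothelial genes (Cdh5, Tie1, Kdr and Pecam1) gave 26.4 kb in the labelled Sox9cKO list and 17.2 kb in the labelled Sox9null list, against 17.0 kb in the E12.5 control and 24.5 kb in the E11.5 control. Of these, Kdr was at 0 kb in the labelled Sox9null list. Muscle genes (Pax3, Myod1, Myf5 and Myog) summed to 9.71 kb in the labelled Sox9cKO list and 2.48 kb in the labelled Sox9null list, against 5.15 kb in the E12.5 control and 6.16 kb in the E11.5 control, with Myod1 at 0 kb in every list. The 6 ectoderm genes summed to 23.1 to 31.8 kb and the 4 nerve and glia genes to 9.59 to 13.9 kb over the lists. The part of other cell types in the Tcf7 and Wnt5b values was not tested.

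Axin2 (chromosome 11, 108917828 to 108950783), whose product helps to degrade β-catenin, had 25.7 kb in the labelled Sox9cKO list and 29.8 kb in the labelled Sox9null list, against 32.6 kb in the E12.5 control and 20.1 kb in the E11.5 control. Of its 15 regions, 9 were present in all 4 lists. The start region (108916962 to 108925422) covered 7.34 kb in the labelled Sox9cKO list and 8.28 kb in the labelled Sox9null list, against 8.24 kb in the E12.5 control and 6.72 kb in the E11.5 control. A second strong region lay 28.2 kb upstream (108889271 to 108895125). It covered 4.85 kb in the labelled Sox9cKO list and 5.16 kb in the labelled Sox9null list, against 5.64 kb in the E12.5 control and 3.38 kb in the E11.5 control. Its top score percentile was 85.9 in the labelled Sox9cKO list and 95.5 in the labelled Sox9null list, against 99.8 in the E12.5 control and 87.1 in the E11.5 control. In covered length both deficient lists exceeded the E11.5 control at the start and the upstream region. In score percentile the labelled Sox9cKO list was below the E11.5 control at the upstream region. At the start all 4 lists had the tied score 3100, so their scores do not differ there.

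**Figure D3:**
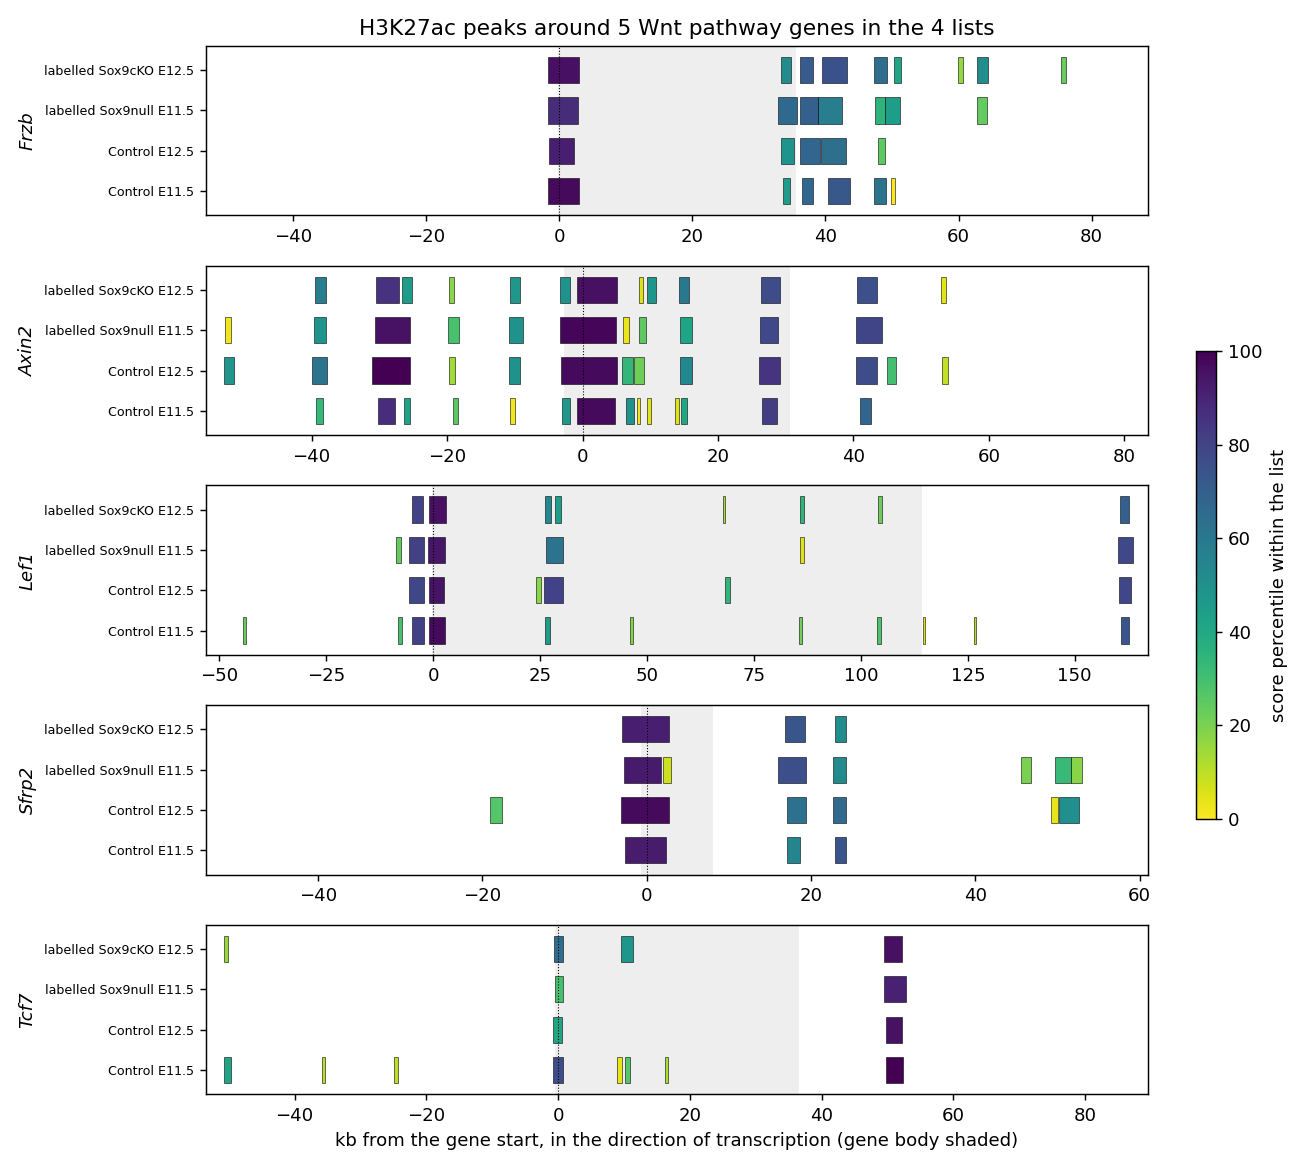
Peaks around Frzb, Axin2, Lef1, Sfrp2 and Tcf7, with 1 row per library, drawn by distance from the gene start (kb, in the direction of transcription) and coloured by score percentile within the list. The Frzb peak 63.6 kb from the start is present in the 2 upper rows alone, and the Sfrp2 peaks 51.1 kb downstream are present in the labelled Sox9null and E12.5 control rows alone.

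Set against both controls, the mean of both Sox9-deficient lists changed little at these genes. Differences are given as log2 ratios of covered kb plus 1 kb, and a gene is called higher or lower past a 1.5-fold ratio. No gene of the 10 was called, against 1.59% of 17960 genes with a peak called higher and 1.57% called lower. The ratios ran from -0.09 at Tcf7 to 0.43 at Frzb, with a median of 0.08 for the 10 genes and 0.04 for all genes. Frzb and Wnt11 had both deficient values above both control values, which held for 15.5% of all genes. No member was below both controls in both lists, against 6.30% of all genes. A count of 2 of 10 is near the share of all genes. At Wnt11 the lowest deficient value (15.1 kb) and the highest control value (14.99 kb) were close together, and with covered length scaled to equal list totals Frzb alone remained above.

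At E11.5, by sample title, 1 gene was called higher and 1 lower in the labelled Sox9null list. Sfrp2 had 14.9 kb against 7.86 kb in the control (log2 0.84), and Tcf7 had 4.43 kb against 7.92 kb in the control (log2 -0.72). Over all genes 5.90% were called higher and 9.78% lower. Both calls ended with 20 kb on each side, at 0.36 for Sfrp2 and -0.40 for Tcf7, and with only the upper 50% of peaks by score, at 0.23 and -0.29. Of the 10 genes, 8 were covered by more and 2, Wnt5b and Tcf7, by less, against 8917 more and 8688 less of 17610 genes in all. After scaling to equal list totals Sfrp1 (-0.04) and Lef1 (-0.01) turned to less, and Wnt5a and Wnt11 were at 0.00 to 2 decimals. The unscaled median was 0.19 for the 10 genes and 0.00388 for all genes. At E12.5, by title, Wnt5b (15.7 kb against 9.41 kb in the control, log2 0.68) and Tcf7 (6.45 kb against 3.80 kb in the control, log2 0.63) were called higher in the labelled Sox9cKO list. No gene was called lower there. With only peaks nearer to the gene than to any other protein-coding gene, the Wnt5b value was -1.06. That setting places each peak by its own midpoint, so the same region can count in 1 list and not in the other. With 20 kb on each side the values were 0.54 for Wnt5b and 0.57 for Tcf7, neither past the limit. With only the upper 50% of peaks by score Wnt5b was at 0.32, no longer called, and Sfrp1 turned to 2.48, against -0.15 with all peaks. The best Sfrp1 peak of the E12.5 control was at percentile 48.1, so that ratio was taken against an empty window. Over all genes 11.3% were called higher and 6.46% lower. The median of the 10 genes was -0.18, against 0.08 for all genes, and Sfrp2 came closest to a call on the lower side at -0.55.

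Under the exchanged names no gene of the 10 was called at either stage. The E11.5 comparison then set the labelled Sox9cKO list over the E11.5 control, with ratios from -0.26 at Tcf7 to 0.41 at Frzb, a median of 0.20 and 0.13 for all genes. Over all genes 6.31% were called higher and 2.03% lower. The E12.5 comparison set the labelled Sox9null list over the E12.5 control, with ratios from -0.22 at Wnt5a to 0.44 at Frzb and a median of -0.003, against -0.04 for all genes. Over all genes 1.93% were called higher and 6.74% lower. Sfrp2 had 0.25 at E11.5 and 0.04 at E12.5 in this assignment, and Tcf7 -0.26 and 0.18. These comparisons share their lists with those by title, so they are other readings of the same 4 libraries. Frzb had positive ratios in either assignment, from 0.38 to 0.48. Their sign was fixed beforehand, since both deficient values exceeded both control values.

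**Figure D4:**
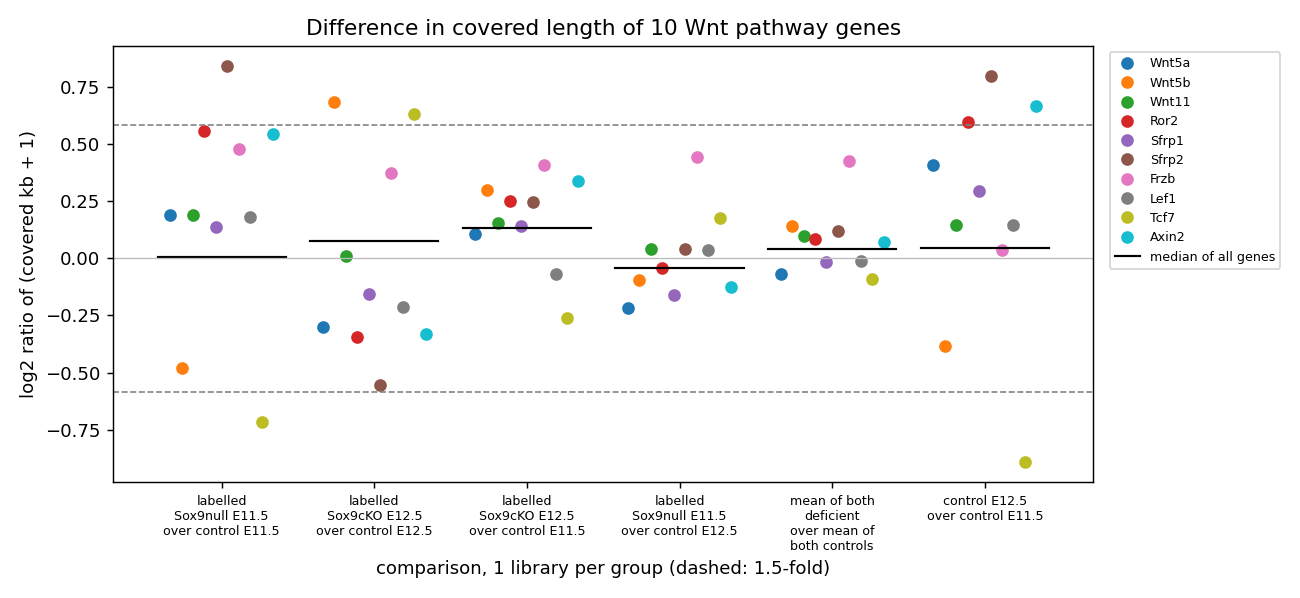
Log2 ratio of covered kb plus 1 kb at the 10 genes in 6 comparisons of 1 library or a mean of 2, with the median of all genes as a line and the 1.5-fold limits dashed. By title, Sfrp2, Tcf7 and Wnt5b pass the limits, whereas with the deficient lists exchanged no gene does. Between the controls Ror2, Sfrp2, Axin2 and Tcf7 do.

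Between the controls, 3 genes were called higher and 1 lower at E12.5 than at E11.5. Ror2 (55.7 kb at E12.5 against 36.5 kb at E11.5), Sfrp2 (14.4 kb against 7.86 kb at E11.5) and Axin2 (32.6 kb against 20.1 kb at E11.5) were higher, at log2 0.60, 0.80 and 0.67. Tcf7 was lower, with 3.80 kb at E12.5 against 7.92 kb at E11.5 (log2 -0.89). Over all genes 9.40% were called higher and 7.30% lower. With only the upper 50% of peaks by score Ror2, Sfrp2 and Tcf7 were no longer called, at 0.35, 0.58 and -0.57, and with 20 kb on each side none of the 4 genes was. The controls also differed at Tbx5, with 3.76 kb at E12.5 against 32.3 kb at E11.5. Whether limb type has a part in the differences between the controls was not tested. The E12.5 control covered 66.7 Mb of the genome against 52.0 Mb in the E11.5 control. After scaling to equal list totals, which set the median of all genes at -0.26 against 0.05 unscaled, no gene was called higher, and Wnt5b and Tcf7 were called lower. Paired by stage as the deposited names have it, Wnt5a, Ror2, Sfrp2, Lef1 and Axin2 were covered by more in both E12.5 lists than in both E11.5 lists (19.5% of all genes). Wnt5b and Tcf7 were covered by less in both (29.4% of all genes).

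Merging the peaks of the 4 lists gave 116 regions in the windows of the 10 genes, 61 touching a gene body and 55 in the flanks. Of these, 50 (43.1%) were present in all 4 lists, against 40.1% of the 49367 regions of the genome. Another 37 (31.9%) were called in 1 list alone, against 34.7% over the genome. Such regions scored low, with a median percentile of 15.3, against 67.5 for the best peaks of regions found in all 4 lists. Regions in both deficient lists and neither control numbered 3 (2.59%, against 1.15% over the genome), 1 each at Wnt11, Sfrp1 and Frzb. The reverse was seen for 1 region (0.862%, against 1.64%), 29.1 kb to the left of Wnt5a (28474880 to 28476024), at percentiles of 12.9 in the E12.5 control and 2.94 in the E11.5 control. The labelled Sox9null list and the E12.5 control shared 6 regions that no other list had (5.17%, against 3.68%), 3 at Ror2 and 1 each at Sfrp1, Sfrp2 and Axin2, at percentiles from 2.32 to 50.6. The labelled Sox9cKO list and the E11.5 control shared 7 (6.03%, against 6.45%), 2 each at Wnt5b and Tcf7 and 1 each at Sfrp1, Lef1 and Axin2, at percentiles from 4.69 to 47.6.

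Of the other 71 Wnt pathway genes of the list, 2 were called higher and 1 lower on the mean of both deficient lists over both controls, against 1.59% and 1.57% of all genes. Both deficient values lay above both controls at 5 of the 71 genes (Wnt6, Wnt10a, Rspo3 and the secreted antagonist genes Sfrp5 and Sost) and below them at 3 (Wnt7b, Fzd3 and Lgr6), against 15.5% and 6.30% of all genes, and these genes are named after their values were seen. The higher genes were Rspo4, an R-spondin that amplifies Wnt signals (5.81 kb in the labelled Sox9cKO list and 1.02 kb in the labelled Sox9null list, against 0 kb in the E12.5 control and 2.75 kb in the E11.5 control), and Dkk1. Dkk1, an LRP antagonist gene, had 2.86 kb in the labelled Sox9cKO list and 2.003 kb in the labelled Sox9null list, against 0 kb in the E12.5 control and 2.09 kb in the E11.5 control. Wnt7b was lower, with 2.93 kb in the labelled Sox9cKO list and 1.29 kb in the labelled Sox9null list, against 3.14 kb in the E12.5 control and 4.28 kb in the E11.5 control. Of these 3 genes, only Wnt7b had both deficient values on the same side of both controls.

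By title, 3 pathway genes were called higher and 5 lower in the labelled Sox9null list at E11.5, and 7 higher and 7 lower in the labelled Sox9cKO list at E12.5. The shares of all genes were 5.90% and 9.78% at E11.5, and 11.3% and 6.46% at E12.5. Wif1, which encodes a secreted Wnt inhibitor, was called in opposite directions. It had 20.2 kb in the labelled Sox9null list against 7.14 kb in the E11.5 control, and 10.1 kb in the labelled Sox9cKO list against 18.5 kb in the E12.5 control. The co-receptor gene Lrp6 (14.03 kb in the labelled Sox9null list against 5.84 kb in the E11.5 control) and the R-spondin receptor gene Lgr4 (11.6 kb against 6.93 kb in the E11.5 control) were also higher at E11.5. Sp5, a target of β-catenin, was covered over 0 kb in the labelled Sox9null list against 1.90 kb in the E11.5 control, and over 3.73 kb in the labelled Sox9cKO list against 0.773 kb in the E12.5 control. Wnt9b (2.03 kb in the labelled Sox9null list against 5.18 kb in the E11.5 control) and Wnt7b (1.29 kb against 4.28 kb in the E11.5 control) were also lower at E11.5. Rspo4 and Dkk1, with the values given above, had the highest ratios at E12.5, where the control had no peak. The Frizzled genes Fzd4 (6.96 kb in the labelled Sox9cKO list against 14.5 kb in the E12.5 control) and Fzd6 (3.07 kb against 6.19 kb in the E12.5 control) were lower at E12.5.

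With the names exchanged, 4 of the 71 genes were called higher and 0 lower at E11.5, and 2 higher and 8 lower at E12.5. The shares of all genes were 6.31% and 2.03% at E11.5, and 1.93% and 6.74% at E12.5. Between the controls, 12 were called higher at E12.5 and 6 lower, against 9.40% and 7.30% of all genes. The ligand gene Wnt2b (7.08 kb at E12.5 against 2.42 kb at E11.5), Wif1 (18.5 kb against 7.14 kb at E11.5) and Lgr4 (16.4 kb against 6.93 kb at E11.5) had the 3 largest ratios. Rspo4 and Dkk1 had no peak at E12.5, and Wnt9b had 2.11 kb against 5.18 kb at E11.5. The median over the 71 genes was 0.13, against 0.22 for the 10 genes and 0.05 for all genes.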

How the data were processed

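H3K27ac chromatin immunoprecipitation and sequencing was used from 4 libraries of mouse limb buds, grouped by sample title. The authors deposited 1 peak list per library, with a position and a score for each peak. Per the file headers, which here are the peak names, MACS was the caller, and the submitters' processing notes name mm10, CASAVA 1.8 and deepTools. Not given in the sources used here are the MACS version, the aligner and the use of an input. The deposited score served to rank peaks, never across lists. Covered kb per gene is the length under peaks in the window described above, for 21887 RefSeq protein-coding genes. Peaks sharing 1 bp across lists were merged into regions. Ratios are log2 of covered kb plus 1, called past 1.5-fold. Each group of the labels has 1 library, and no test was run. The read depth is unknown, and a score shared by many peaks gives tied ranks.

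The 10 genes, the other gene lists and the comparisons were chosen with earlier results of these data known. The 10 genes are all named. Of the other 71 pathway genes, the 3 highest and 3 lowest ratios among those called are named in each comparison, except those by exchanged names. The pairing by deposited names was added after the values were seen. A genome sequence was not used here, so the sequences are RefSeq promoter windows, and distances for Wnt5a and Sfrp1 run from the left gene end. Python 3.11.15, numpy 2.4.6, pandas 2.3.3 and matplotlib 3.10.9 were used. The counting was checked on the E11.5 control list after the peaks around randomly picked, well covered genes were deleted, and against a separate count of covered length. Calls of lower at those genes followed from the deletion. Alternatives were the upper 50% of each list, the same number of top peaks, scaled length, windows of 20 and 100 kb, peaks nearest to the gene, a pseudocount of 0.2 kb, exchanged names, merging at 50% overlap and leaving out 1 list.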

Additional observations from a re-analysis of the deposited data

Results flagged for a closer look

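Tcf7 moved in opposite directions at the 2 stages when the deficient lists were taken by title. The log2 ratio was -0.72 for the labelled Sox9null list over the control at E11.5 and 0.63 for the labelled Sox9cKO list over the control at E12.5, both past the 1.5-fold limit. With 1 library per group the difference was not tested. The lengths include a peak beside the neighbour Skp1. With 20 kb on each side neither value was past the limit. With the upper 50% of peaks by score they were -0.29 and 0.59, the latter alone past the limit. With equal numbers of top peaks they were -0.30 and 0.57, neither past it. With the names exchanged the values were -0.26 at E11.5 and 0.18 at E12.5, neither past the limit.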

How the results depend on the processing

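No paired analysis was possible because the values come from no test, and no groups of the labels share 2 replicate numbers. No gene was called on the mean of both deficient lists over both controls under any alternative run, including leaving out each list in turn, where the counts ran from 0 to 0. The Frzb ratio of that comparison was 0.25 to 0.46, and both deficient values stayed above both controls in the 6 settings that change the covered length (the upper 50%, equal numbers of top peaks, scaled length, 20 kb, 100 kb and nearest peaks). Wnt11 did not stay above: with the upper 50% of each list, with scaled length and with 100 kb windows Frzb was the only gene, a count of 1, and with scaled length 1 gene, Sfrp1, was below both controls. By title at E11.5 (1 higher, 1 lower), the counts were 3 higher (Wnt5a, Lef1, Axin2) and 2 lower (Wnt11, Sfrp1) with the upper 50%, so neither Sfrp2 nor Tcf7, 4 and 0 with equal numbers of top peaks, 2 lower with scaled length, 0 and 0 with 20 kb, 3 and 0 with 100 kb, 0 higher with the nearest peaks, and 0 and 0 with exchanged names. By title at E12.5 (2 higher, 0 lower), they were 2 higher with the upper 50% but Sfrp1 and Tcf7 in place of Wnt5b and Tcf7, 1 higher with equal numbers of top peaks, 0 and 1 with 20 kb, 1 and 1 with 100 kb or the nearest peaks, 1 lower with the smaller pseudocount, and 0 higher with exchanged names. Between controls (3 higher, 1 lower), they were 3 and 1 with the upper 50% but Wnt5a, Lef1 and Axin2, with Sfrp1 lower (-2.21, against 0.30), 0 and 2 with scaled length, 1 (Sfrp1) and 0 with 20 kb, 4 (Wnt5a, Sfrp1, Sfrp2, Axin2) and 0 with 100 kb, 3 and 1 with nearest peaks but Wnt5b in place of Sfrp2, and 0 lower with equal numbers. With the upper 50%, no Sfrp1 peak was left in the labelled Sox9null list or the E12.5 control. The Sfrp1 calls of that setting are thus against an empty window. Scaling set the median of all genes at -0.16 in the E11.5 comparison and 0.20 in the E12.5 comparison by title, against 0.00388 and 0.08 unscaled. In the pairing by deposited names, 1 gene, Tcf7, was below with the nearest peaks, against 2. With the upper 50%, 27 of 48 regions were in all 4 lists. The Wnt5b ratio at E12.5 by title, 0.68, was -1.06 with the nearest peaks and -0.10 with exchanged names. The nearest-peak setting places each peak by its midpoint in its own list, so the same region can count in 1 list only. At the Wnt5b start region the labelled Sox9cKO list covered 2.44 kb against 2.13 kb in the E12.5 control. Beside Fbxl14 it covered 3.81 kb against 3.42 kb in the E12.5 control. The -1.06 thus does not show less coverage at these regions. The part of the midpoint rule in that value was not tested. The number and width of peaks differ between lists and the read depth is unknown, so small differences in covered length are not firm.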
